A study of Drosophila melanogaster with 2 samples.

Results

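The genes described are 10 ecdysone response genes of Drosophila melanogaster that do not encode nuclear receptors: br, Eip74EF, Eip93F, Eip63E, Sox14, tai, Kr-h1, Blimp-1, crol and ImpL2. They are 10 of the 13945 protein-coding genes annotated on the 6 chromosome arms. They were taken by name, as known response genes of the hormone, and binding was read in each gene span with 2 kb added on each side. The data were ChIP-seq peak lists for the nuclear receptor Hr78, made from whole embryos of both sexes. Their age was 8 to 16 h per the source names of the samples, while the labels' age field holds another number, which was not used. The embryos were of the strain Hr78-GFP, which stably carries Hr78 with eGFP fused to its C terminus, and chromatin sonicated to 200 to 800 bp was precipitated through the GFP tag. All samples formed 1 group of 2 biological replicates, numbered 1 and 3, from the same line. No untagged or second condition was analysed here, so no test between conditions was possible and the values below are descriptions. The labels do not say what promoter drives the tagged gene or whether the untagged receptor was also present.

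Ecdysone is the steroid hormone that times moulting and metamorphosis in insects, and a pulse of it also occurs in the middle of embryogenesis. The hormone binds the receptor EcR with its partner usp. The receptor then switches on a small set of early genes, several of which encode transcription factors that control later genes. Hr78 is an orphan nuclear receptor required for ecdysone responses at the onset of metamorphosis and known to bind many ecdysone-controlled puffs of the larval polytene chromosomes. Receptors of its kind recognise the half-site hexamer AGGTCA, and pairs of such hexamers in the same orientation form direct repeats. Among the 10 genes, br, Eip74EF, Eip93F, Sox14, Kr-h1, Blimp-1 and crol encode transcription factors, tai encodes a coactivator of the ecdysone receptor, and Eip63E and ImpL2 encode a kinase and a secreted protein.

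The sequences below are the windows of 101 bp centred on the summit of highest signal in 7 of the genes, and they are shown because these are the places where the tagged receptor was most enriched. A further pair of windows in Eip63E is shown because they held the AGGTCA form; that pair was chosen after the values were seen. All are the plus strand of dm6, read from RefSeq's genome release 6, 5' to 3'. Capitals mark the hexamer AGGTCA and its variant forms AGTTCA as well as GGGTCA together with GGTTCA, each on either strand.
br (chrX:1646543-1646643): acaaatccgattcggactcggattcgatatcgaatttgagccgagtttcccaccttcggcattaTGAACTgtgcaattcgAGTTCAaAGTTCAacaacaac
Eip74EF (chr3L:17608400-17608500): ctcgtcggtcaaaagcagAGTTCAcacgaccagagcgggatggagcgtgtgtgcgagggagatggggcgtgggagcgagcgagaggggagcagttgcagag
Kr-h1 (chr2L:6088450-6088550): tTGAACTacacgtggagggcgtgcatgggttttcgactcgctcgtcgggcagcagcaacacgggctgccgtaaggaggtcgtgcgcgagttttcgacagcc
Blimp-1 (chr3L:5634452-5634552): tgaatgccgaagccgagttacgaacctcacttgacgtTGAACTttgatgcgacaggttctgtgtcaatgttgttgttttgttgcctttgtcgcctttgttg
tai (chr2L:9176170-9176270): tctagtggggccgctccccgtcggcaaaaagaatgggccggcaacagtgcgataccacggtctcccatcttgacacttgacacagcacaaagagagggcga
Eip63E (chr3L:3517924-3518024): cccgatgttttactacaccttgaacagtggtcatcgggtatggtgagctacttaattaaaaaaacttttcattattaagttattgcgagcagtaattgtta
ImpL2 (chr3L:4228341-4228441): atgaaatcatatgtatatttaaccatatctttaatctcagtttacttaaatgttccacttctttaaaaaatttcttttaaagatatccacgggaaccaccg
Eip63E, second window (chr3L:3525771-3525871): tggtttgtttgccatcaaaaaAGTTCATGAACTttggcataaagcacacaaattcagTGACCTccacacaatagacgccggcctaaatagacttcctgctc
Eip63E, another window (chr3L:3542556-3542656): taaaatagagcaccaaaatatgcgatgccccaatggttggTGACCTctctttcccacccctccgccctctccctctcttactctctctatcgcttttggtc

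Each replicate had its own list of 30000 peaks, and a further list of 30000 was called on both replicates together. An optimal list of 5723 peaks was derived by thresholding on reproducibility. Not every peak of it was found in both replicates: no replicate 3 peak held the optimal summit of the gene Jheh3. Each of the 43 optimal summits described below had the same rank in the optimal list and in the list called on both together. A peak's signal is the authors' value of enrichment over a control, and its summit is the base of highest enrichment within the peak. Ranks count from 1 for the highest signal, and a replicate rank is that of the replicate summit nearest to the optimal summit. Signals differ in scale between the replicate lists and the list called on both together: the median was 71.4 in replicate 1, 57.1 in replicate 3 and 118 in that list. The optimal median of 441 is not comparable with these, because the optimal list is shorter and its lowest signal was 272. No list states how many reads lie behind a peak, and the depth is therefore unknown. Whole embryos were used, and strong binding in few cells cannot be told apart from weak binding in many.

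Optimal summits lay in 8 of the 10 genes, where 29.0% of all protein-coding genes had at least 1. The share depends on length, and all 10 genes are over 5 kb: it was 46.3% for genes of 5 to 20 kb, 60.9% for those of 20 to 50 kb and 65.5% for those of 50 kb and over. The 8 genes held 43 optimal summits in 37 separate regions. The remaining pair, Eip93F and crol, had none. With the weaker peaks of the pooled list, 9 of the 10 genes had a summit, where 50.7% of all protein-coding genes did. By length, the share of genes with no pooled summit was 32.6% at 5 to 20 kb, 21.0% at 20 to 50 kb and 23.5% at 50 kb and over. The pooled list added 131 weaker summits, with signals from 45.8 to 260.3, to make 174 in all.

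**Figure D1:**
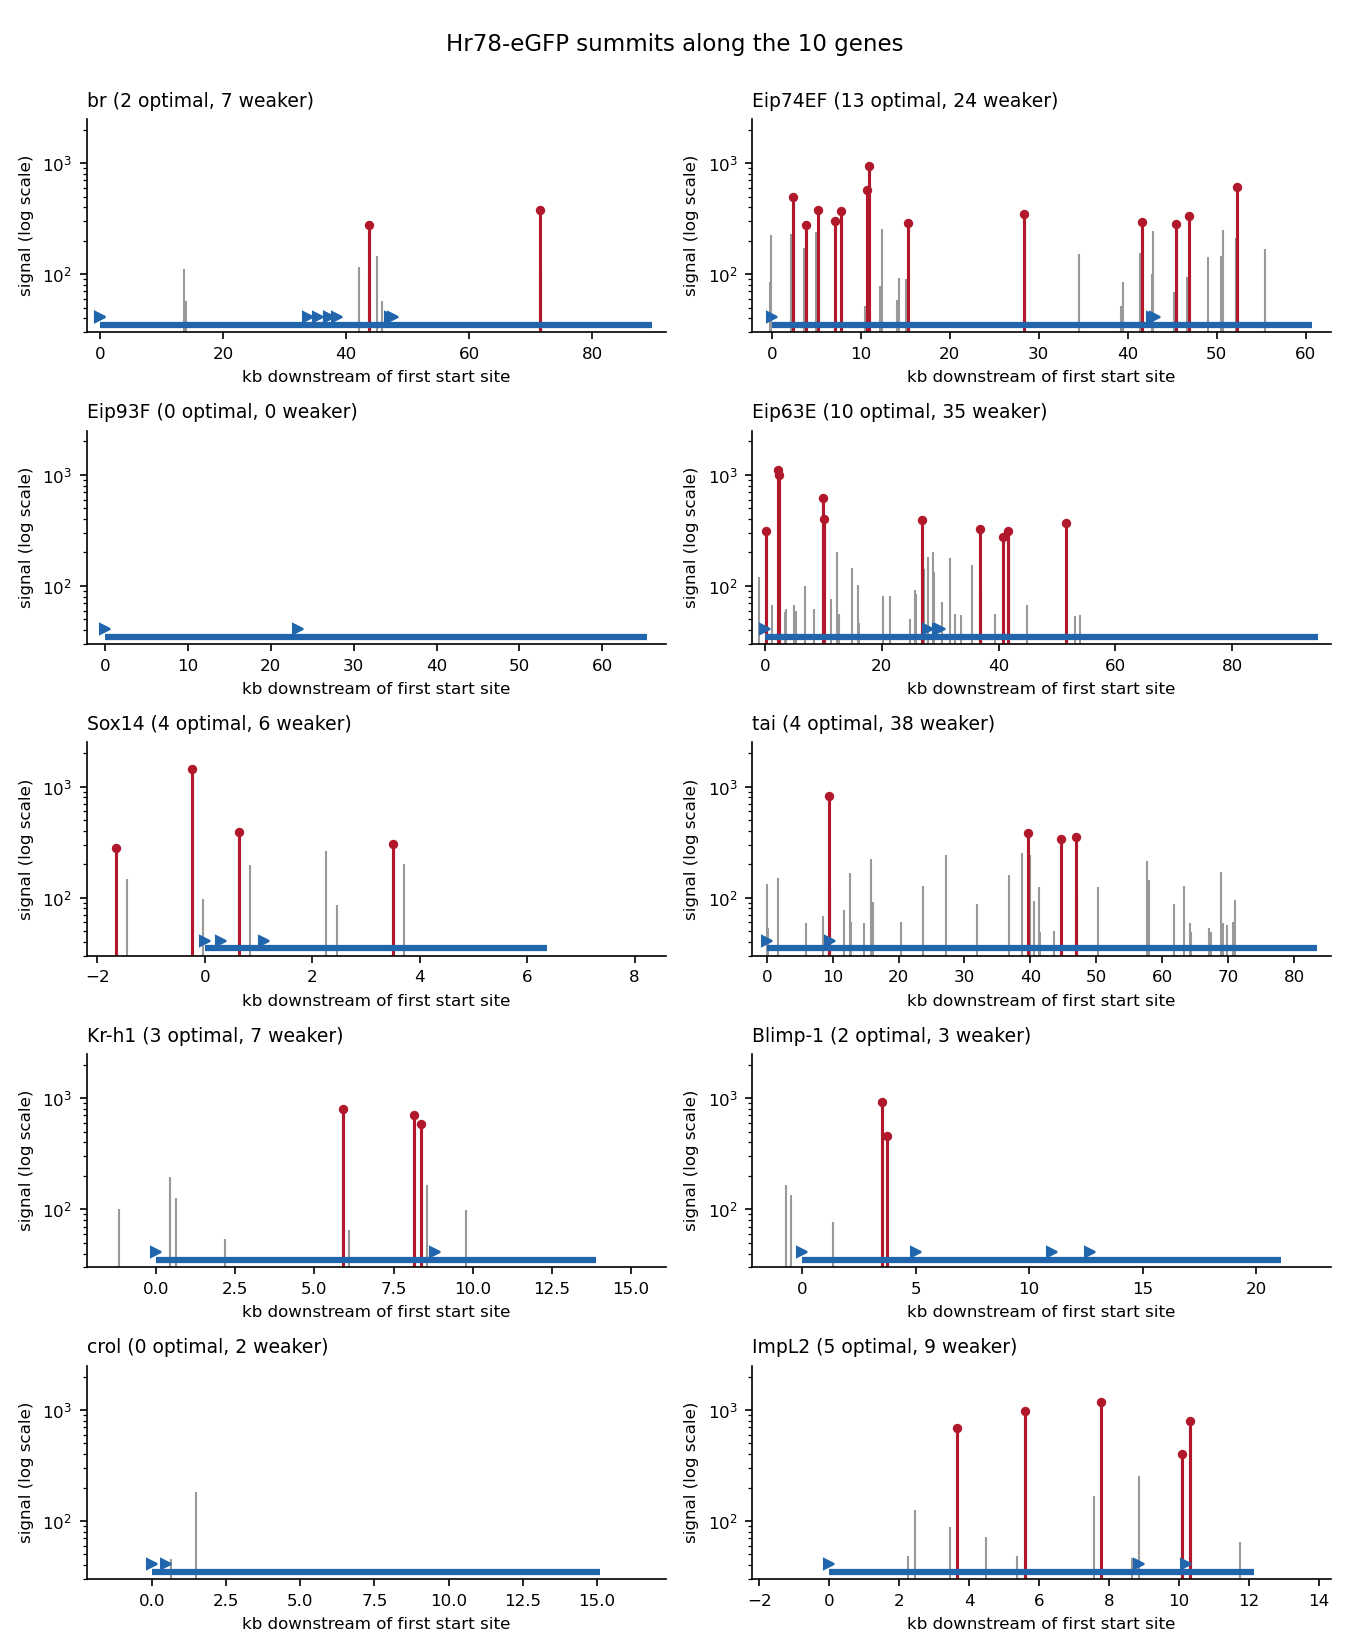
Positions of Hr78-eGFP summits along each of the 10 genes, in kb downstream of the first start site (horizontal axis), against the authors' signal on a log scale (vertical axis). Red lines with dots are optimal summits, grey lines are weaker summits of the pooled list, the blue bar is the gene and blue triangles are its annotated start sites; Eip74EF holds 13 red lines and Eip93F holds no line of either kind.

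The density of summits varied widely among the genes. The extended spans of the 10 genes cover 503 kb and held 0.855 optimal summits per 10 kb, against 0.427 over the 6 arms and 0.505 over the extended spans of all protein-coding genes. That sum was carried by some of them: Sox14 had 3.85 per 10 kb, ImpL2 3.1 and Eip74EF 2.01. Below 0.505 lay 4 of the 10, with 0.457 at tai, 0.213 at br and 0 at Eip93F and crol. Among protein-coding genes of at least 50 kb the median was 0.181 per 10 kb. Both tai and br lay above that median, and Eip93F lay below it. The median signal of the 43 summits was 390.2, and the median of all optimal summits was 440.5. Of the 43 summits, 18 (41.9%) ranked among the 2861 highest of the 5723 optimal summits and 7 among the 1000 highest. The highest was at Sox14 with 1454.2 and the lowest at Eip63E with 274.1, close to the optimal list's lower end of 271.7. Just below that end lay a weaker Sox14 summit with 260.3 and a weaker Eip74EF summit with 256.9.

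Eip74EF, an ETS-domain transcription factor and a classic early puff gene, held the most. The gene lies at chr3L:17558672-17619325 on the minus strand, is 60.7 kb long and has 3 start sites. It held 13 optimal summits and 24 weaker ones. Only 13 of the 307 protein-coding genes of 50 kb and over (4.23%) had as many optimal summits, and the median of that length class was 2. The highest, at position 17608450, had a signal of 936.4. Its signal was 571.3 in replicate 1 and 371.9 in replicate 3, where it ranked 667 and 1021. The next 4 lay at 17567008 (607.6), 17608651 (568.1), 17616974 (493.9) and 17614148 (380.9), and the other 8 had signals from 278.6 to 373.6.

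All 13 Eip74EF summits were intronic, and none lay within 500 bp of a start site of the gene. The 16 kb downstream of the upstream start site held 8 of them, all inside intron 1 of the transcripts that begin there. The summit nearest to a start site was 1077 bp upstream of a downstream start, at 17577703 with a signal of 296.2. Each of the 3 start sites had only weaker summits of the pooled list within 500 bp. The summit at 17567008 was slightly nearer to a start site of the neighbouring gene CycT (9220 bp) than to one of Eip74EF (9312 bp). Ranks of several Eip74EF summits differed between the replicates: the one at 17611504 ranked 2254 in replicate 1 and 7186 in replicate 3, and the one at 17608651 ranked 1323 and 4436.

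The gene br, the Broad-Complex, encodes BTB zinc finger proteins that specify the pupal programme. It lies at chrX:1575132-1664869 on the plus strand, is 89.7 kb long and has 9 start sites. Both of its optimal summits ranked below the 2861 highest, and they lay at unlike distances from its own start sites. The higher, at 1646593, had a signal of 377.3. Its signal was 171.1 in replicate 1 and 206.7 in replicate 3, where it ranked 5232 and 2766. It was intronic and 23861 bp downstream of the nearest start site of br; the nearest start site of any protein-coding gene, that of dor, was 18459 bp away. The other, at 1618822, had a signal of 278.7 and ranked 5818 and 7045. It was 3486 bp upstream of the nearest start site of br, which equals the median such distance of the 43 summits. A start site of Mur2B, a gene that overlaps br, lay 667 bp from it. None of the 9 br start sites had an optimal or a weaker pooled summit within 500 bp. Among genes of 50 kb and over, 158 of 307 (51.5%) had as many optimal summits as br.

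Sox14, an HMG-box transcription factor induced by ecdysone and needed for neurite pruning at metamorphosis, was the shortest gene and held the highest summit. It lies at chr2R:23978801-23985177 on the plus strand and is 6.38 kb long. The summit at 23978553, 248 bp upstream of its first start site, had a signal of 1454.2 and ranked 313 of the 5723. Its signal was 767.2 in replicate 1 and 692.4 in replicate 3, with ranks of 364 and 291, so both replicates placed it near the top of their lists. The other 3 optimal summits were lower, at 23979438 in the 5' UTR (390.7), at 23982298 in an intron (306.0) and at 23977144 (281.3). The last was 111 bp from a start site of the neighbouring gene PPP1R15 and 1657 bp from that of Sox14. All 3 start sites of Sox14 had an optimal summit within 500 bp. Of the 2471 genes of 5 to 20 kb, 163 (6.6%) had at least 4 optimal summits.

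Kr-h1, a zinc finger factor that mediates the juvenile hormone signal and also responds to ecdysone, held 3 optimal summits, all among the 2861 highest. The gene lies at chr2L:6082603-6096498 on the plus strand and is 13.9 kb long. The summit at 6088500 had a signal of 805.6, with 389.1 in replicate 1 (rank 1388) and 410.3 in replicate 3 (rank 843). The summit at 6090763 had a signal of 701.9 and ranked 1150 and 1458. The summit at 6090972, 440 bp upstream of the second start site, had a signal of 585.2 and ranked 1906 and 1770. All 3 lay in intron 1 of the transcript from the upstream start site, before the second start site, which Kr-h1 shares with CG45075. The upstream start site had 1 weaker summit within 500 bp.

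Blimp-1, a zinc finger repressor that times the expression of the receptor gene ftz-f1, had a single region with 2 optimal summits. The gene lies at chr3L:5630983-5652094 on the plus strand and is 21.1 kb long. The summit at 5634502, in intron 1 and 1513 bp upstream of the second start site, had a signal of 932.0. Its signal was 477.6 in replicate 1 and 472.5 in replicate 3, where it ranked 964 and 633. The companion at 5634704 had a signal of 453.0 and ranked 2952 and 2411. None of the 4 start sites of Blimp-1 had a summit of either list within 500 bp. Weaker summits lay just outside that window, 509 bp (135.7) and 709 bp (166.2) upstream of the first start site. Of the 706 genes of 20 to 50 kb, 123 (17.4%) had a summit as high as the Blimp-1 one, and 296 (41.9%) had at least 2.

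Eip93F and crol were the genes without an optimal summit. Eip93F, the factor that directs adult development and the death of larval tissues, lies at chr3R:21949114-22014539, is 65.4 kb long and had no summit in the pooled list either. Of the 307 genes of 50 kb and over, 72 (23.5%) had no pooled summit. The zinc finger gene crol, at chr2L:11794327-11809438 and 15.1 kb long, had 2 weaker summits. The one at 11807955 had a signal of 183.9 in the pooled list, ranked 9450 there, and ranked 10641 in replicate 1 and 7446 in replicate 3. The other, at 11808779 in the 5' UTR, had a signal of 45.8, and no replicate 3 peak held it. Expression and chromatin state of these genes were not measured.

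The coactivator gene tai (taiman) held 4 optimal summits and many weaker ones. It lies at chr2L:9166778-9250211 on the plus strand, is 83.4 kb long and had 38 weaker summits. The median of genes of 50 kb and over was 2 optimal summits, and 107 of 307 (34.9%) had at least as many as tai, while 49 (16.0%) at least as many pooled ones. The highest, at 9176220 and 138 bp upstream of the second of its 2 start sites, had a signal of 817.6. Its signal was 359.3 in replicate 1 and 448.6 in replicate 3, with ranks of 1659 and 701. The other 3 lay 30121 to 37348 bp downstream of that start, in introns, at 9206479 (381.3), 9213706 (349.6) and 9211416 (334.6), and ranked between 3249 and 6195 in the replicates. The summit at 9213706 was marginally nearer to a start site of the gene aust (37336 bp) than to one of tai (37348 bp).

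Eip63E, a cyclin-dependent kinase gene first found as an ecdysone-induced transcript, held 10 optimal and 35 weaker summits. The gene lies at chr3L:3515751-3610521 on the plus strand and is 94.8 kb long, the longest of the 10. Of the genes of 50 kb and over, 26 of 307 (8.47%) had at least 10 optimal summits. The highest, at 3517974 and 2223 bp into the gene, had a signal of 1107.7. Its signal was 647.2 in replicate 1 and 465.0 in replicate 3, where it ranked 530 and 655. A companion at 3518174 had a signal of 997.5, with ranks of 715 and 754. The next lay at 3525622 (615.1), 3525821 (403.7) and 3542606 (390.2). The summit at 3542606, 974 bp upstream of the second start site, was the least even of the 43: it ranked 9305 in replicate 1 and 1682 in replicate 3. One further summit, at 3515864 with a signal of 310.0, lay in the 5' UTR 113 bp from the first start site.

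ImpL2, a secreted protein that binds insulin-like peptides and was first found as a late ecdysone-inducible gene of imaginal discs, held 5 optimal summits in a short gene. The gene lies at chr3L:4224006-4236147 on the minus strand and is 12.1 kb long. Of the 5, 4 ranked among the 2861 highest, and 72 of 2471 genes of 5 to 20 kb (2.91%) had as many. The highest, at 4228391, had a signal of 1177.1. Its signal was 595.1 in replicate 1 and 572.8 in replicate 3, where it ranked 611 and 429. The others were at 4230546 (971.8), 4225847 (803.0), 4232496 (685.3) and 4226061 (400.4). The summits at 4225847 and 4226061 flank the most downstream start site, at distances of 103 and 111 bp. A weaker summit, with a signal of 251.9, lay 1 bp from the middle start site, which ImpL2 shares with CG46460. The upstream start site had no summit of either list within 500 bp.

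**Figure D2:**
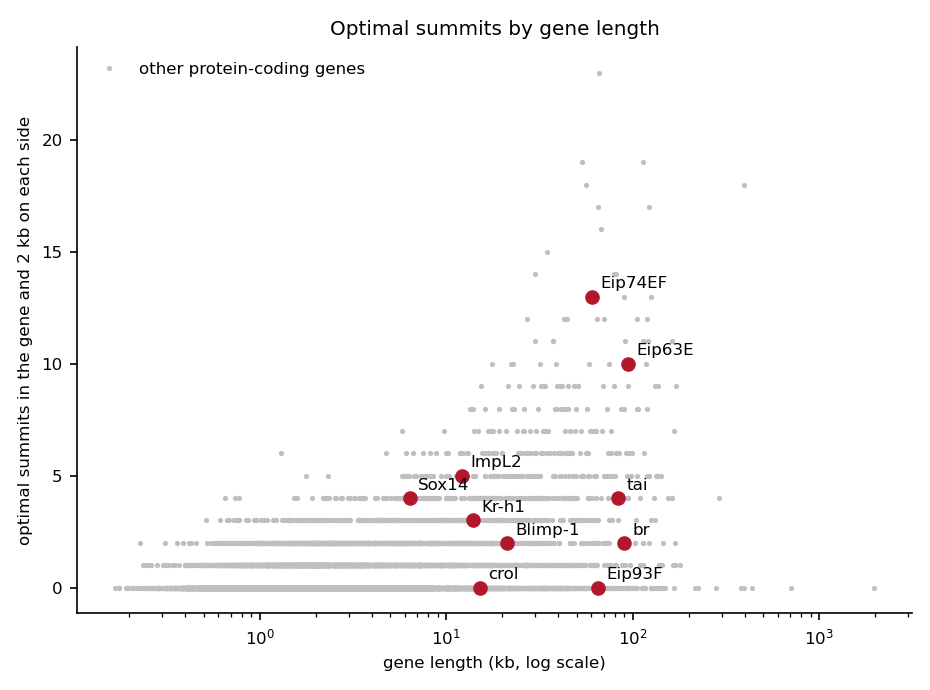
Optimal summits per gene span with 2 kb on each side (vertical axis) against gene length in kb on a log scale (horizontal axis), for the 10 genes (red, named) and all other protein-coding genes (grey). Eip74EF (13) and Eip63E (10) stand high among genes of 50 kb and over, Sox14 (4) and ImpL2 (5) among those of 5 to 20 kb, and Eip93F and crol lie at 0.

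Of the 43 optimal summits, 39 (90.7%) lay in introns, 2 in 5' UTRs and 2 upstream of the gene. Introns made up 74.5% of the bases in these extended spans. Counted by the same rule, the intron share of summits was 45% over all protein-coding genes, whose extended spans are 40.5% intron, and 86.9% over genes of 50 kb and over, whose spans are 86.7% intron. Within 500 bp of a protein-coding start site lay 8 (18.6%), where 34.0% of all optimal summits did, and 7 of these were near a start site of the gene itself. More than 5 kb from every protein-coding start site lay 18 (41.9%), where 23.4% of all optimal summits did. The median distance to the nearest such start site was 3244 bp, against 1342 bp over the whole optimal list. Eip74EF and Eip63E, both over 50 kb long, supplied 13 and 10 of the 43. Of the 34 start sites of the 10 genes, 7 had an optimal and 16 a pooled summit within 500 bp, where the shares over all 19252 protein-coding start sites were 12.3% and 34.6%. Of the 131 weaker summits, 112 lay in introns, 9 in 5' UTRs, 8 upstream, 1 in coding sequence and 1 in a 3' UTR.

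Several summits came in close pairs. In 5 genes (Eip74EF, Eip63E, Kr-h1, Blimp-1 and ImpL2), 6 pairs of neighbouring summits were 199 to 214 bp apart, while the next closest neighbours were 768 bp apart. The left-hand peak, toward smaller positions, was the stronger in all 6 pairs, whichever strand the gene was on. Such pairs and their direction were not counted over all optimal summits, so they cannot be called particular to these genes. With the pooled list, like spacing was also seen at Sox14 (23977144 and 23977344) and tai (9206479 and 9206680). Each pair lay in overlapping regions, so the 43 summits stand for 37 separate places.

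The replicates located the summits alike but ranked them with some spread. The optimal list was derived from these same replicates by thresholding on reproducibility, so agreement in place was favoured by that choice. All 43 lay inside a peak of both full replicate lists, a share not counted over all optimal summits. Of the 43, 42 had a summit of each replicate within 100 bp, where 93.9% of all optimal summits did. The median distance to the nearest replicate summit was 22 bp in replicate 1 and 20 bp in replicate 3. Inside a peak among the 5723 highest of both replicates lay 30 of the 43 (69.8%), where 78.9% of all optimal summits did. The median ratio between the larger and the smaller replicate rank was 1.49. It was over 2 for 8 summits, of which 4 were at Eip74EF, 2 at ImpL2, 1 at Eip63E and 1 at tai. Neither replicate led: 20 summits ranked higher in replicate 1 and 23 in replicate 3. Below the optimal list, 110 of the 131 weaker summits lay inside peaks of both replicates. The pooled list was called on these same replicates, and the share over all its weaker summits was not counted.

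**Figure D3:**
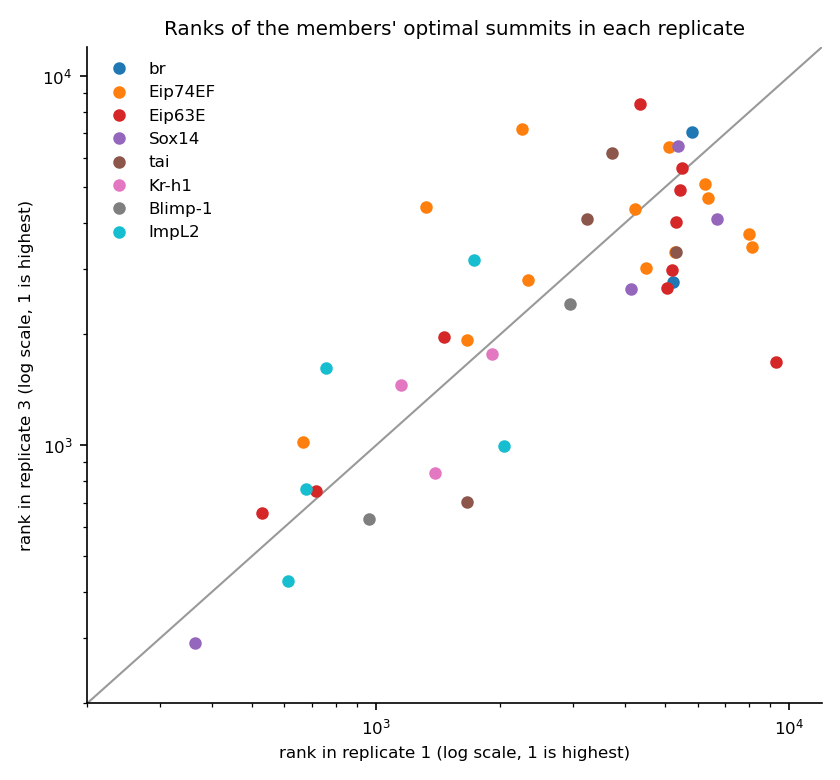
Rank of the replicate 1 summit (horizontal axis) and of the replicate 3 summit (vertical axis) nearest to each of the 43 optimal summits, both on log scales, coloured by gene; the line marks equal ranks. Sox14's highest summit lies lowest on both axes, at 364 and 291, and the Eip63E summit at 9305 and 1682 lies farthest from the line.

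The 4 hexamer forms shown in capitals above were searched on both strands in the 101 bp around each summit, and 14 of 43 summits (32.6%, 95% exact interval 19.1 to 48.5) held at least 1, where 30.3% of all optimal summits did. Windows 500 bp away toward larger positions, whichever strand the gene was on, held a hexamer in 6 cases (14.0%), against 12.1% over all optimal summits. The interval covers counting error only and takes the 43 summits as independent. Yet 13 of them were in Eip74EF and 10 in Eip63E, and summits of a pair lay in overlapping regions. The AGGTCA form itself was at 2 of the 43 (4.65%, interval 0.568 to 15.8), where 574 of all 5723 (10%) held it, and both were in Eip63E. Of the 21 hexamers, 11 had the form AGTTCA and 4 were GGTTCA, while 2 were AGGTCA and 2 were GGGTCA; the letters of the remaining pair, at Sox14, are not given. No hexamer was found in the 5 windows of ImpL2 nor at the highest summits of Sox14, tai and Eip63E.

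**Figure D4:**
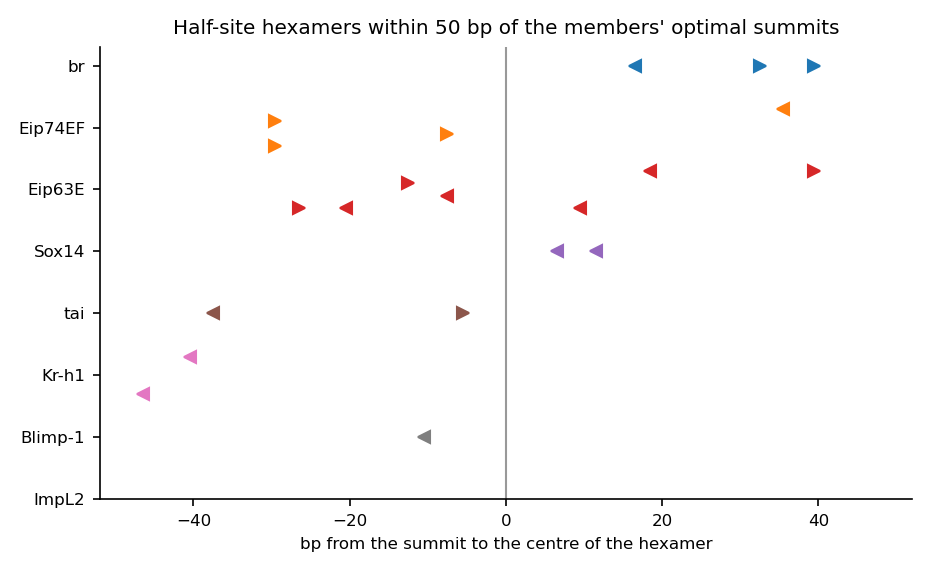
Distance in bp from each optimal summit to the centre of each half-site hexamer within 50 bp (horizontal axis), by gene (rows), with the triangle pointing in the direction of the hexamer's strand. The 21 hexamers lie on both sides of the summits, and the row of ImpL2 is empty.

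Pairs of hexamers were rare. The higher br summit held the direct repeat AGTTCAAAGTTCA, which is 2 hexamers with a spacer of 1 base, at chrX:1646623-1646635, and its near edge was 30 bp from the summit. That arrangement was at 1 of the 43 summits and at 78 of all 5723 (1.36%). The Eip63E summit at 3525821 held AGGTCA on the minus strand 7 bp away, and also AGTTCATGAACT, an inverted pair without a spacer, at chr3L:3525792-3525803. This inverted pair was searched for after the values were seen, and no other of the 5723 windows held one. The Eip63E summit at 3542606 held AGGTCA on the minus strand 5 bp away. The inverted repeat with a spacer of 1 base, the form known from ecdysone response elements, was at none of the 43 and at 3 of the 5723 (0.0524%). Both hexamers of a pair had to match the 4 forms exactly, so imperfect repeats were not counted and their presence was not tested.

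Sites of other embryonic factors were counted in the same windows. The GATA factor motif, an A or T before GATA and an A or G after it, was at 3 of the 43 (6.98%, interval 1.46 to 19.1), where 24.2% of all optimal summits held it. In the windows 500 bp away toward larger positions it was at 11 (25.6%), against 19.3% over all optimal summits. The Blimp-1 companion summit at 5634704 held 2 of these sites, and Kr-h1 and Sox14 had 1 each. CGATA, the letters bound by the insulator protein BEAF-32, was at 5 of the 43 (11.6%), against 14.2%, and at the tai promoter summit it lay over the summit base itself. GAGAGA, bound by the GAGA factor, was at 2 (4.65%), against 5.84%. CGATA contains the letters GATA, but the C before them keeps those letters from also counting as the GATA motif.

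The rest of the pathway was counted by the same rule over 5 lists with 54 genes in all. The lists differ in gene length, so the share by length applies, which was 21.7% for genes under 5 kb. Of the receptors of the cascade, of which 8 are 20 kb or longer, 9 of 10 had an optimal summit, with the highest at Hr39 (3348.1) and Hr4 (1659.7); each of those signals exceeded every one of the 43. Of the other ecdysone-inducible genes, 8 of 16 had one, 12 of the 16 being under 5 kb, led by the transporter gene E23 (2120.8) and the bZIP factor gene vri (928.8). Of the co-regulators, 7 of 9 had one, 1 of the 9 being under 5 kb, led by rig (1708.6), which encodes a nuclear receptor cofactor, and bon (804.7). Of the genes for ecdysteroid synthesis and uptake, 1 of 12 did: the ecdysone importer gene EcI, annotated as Oatp74D, with 865.9; 8 of those 12 are under 5 kb. The Halloween genes for the synthesis enzymes, nvd, spo, spok, sro, phm, dib, sad and shd, had no optimal summit. Of these, only shd had summits in the pooled list, with 6. Of the juvenile hormone genes, 2 of 7 had one: the receptor gene gce (1636.7) and Jheh3 (447.6), whose summit no replicate 3 peak held. Of these 7, 5 are under 5 kb.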

How the data were processed

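ChIP-seq was done on 2 biological replicates of whole Hr78-GFP embryos, and both formed 1 group. The labels' description names an antibody against GFP, while their antibody field names Hr78. Per the text deposited with the samples, the authors called peaks on dm6 against a control alignment, for each replicate and for both together, and the optimal list was thresholded on the irreproducible discovery rate. No source used here names the caller, the aligner or the threshold. The signal of each peak and the offset of its summit are as deposited by the authors. Each replicate and the pooled list hold 30000 peaks and the optimal list 5723. The depth is unknown, and the control was not analysed here.

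Gene spans and start sites came from Ensembl release 115 (BDGP 6.54), whose 6 arms match the lengths of RefSeq's genome release 6, the source of the sequences. A summit was assigned to every gene whose span, with 2 kb on each side, held it. Hexamers and other motifs were counted within 50 bp of the summit and of a point 500 bp away toward larger positions. Intervals are 95% exact (Clopper-Pearson) intervals. Python 3.11.15, numpy 2.4.6, scipy 1.17.1, pandas 2.3.3 and matplotlib 3.10.9 were used, and the counting was tested on simulated spans and motifs. No p-value was computed.

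The members, the 5 pathway lists and the rules were chosen with earlier results of these data known. The rule named all 10 genes, each optimal summit for genes with at most 8 and otherwise the 5 highest, genes whose start site was nearest to a summit, and the 2 genes of highest signal per list; other summits and genes named were chosen after their values were seen. In the co-regulator list, DOR was first entered under a wrong symbol and was corrected to TP53INP after the files were read; phm, EcI, Eip71CD and Eip55E were found under the symbols phtm, Oatp74D, MsrA and Cth. Alternatives changed the span extension, the start-site and motif windows, the peak list, the replicates and the rule of assignment. No sequence from Sox14 is shown.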

Additional observations from a re-analysis of the deposited data

How the results depend on the processing

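The count of genes with an optimal summit was 8 with spans extended by 0 or 5 kb and with 1 summit per region. It was 7 among the 2861 highest optimal summits and when each summit went to the nearest start site, because br then had none. For either replicate alone, the 5723 highest peaks of its own list took the place of the optimal list, and 8 genes had a summit. Replicate 1 alone gave 38 such summits and replicate 3 alone 42, or 0.756 to 0.836 per 10 kb. The ranges were 7 to 9 near a start site of the gene, 13 to 17 with a hexamer and 3987 to 4235 protein-coding genes. The br count was 1 in either replicate alone. The 2861 highest held 18 of the 43 summits, 0.358 per 10 kb, 4 near a start site and 4 with a hexamer, and gave 2648 in place of 4049 protein-coding genes, since they are fewer peaks. With no extension 1976 protein-coding genes had a summit, over shorter spans. A hexamer was at 9 summits within 25 bp, at 23 within 100 bp, and at 2 with AGGTCA only. The number of summits found in both replicates was 30 among the highest peaks, 42 by summits within 100 bp and 43 in the full lists. At ImpL2, spans extended by 5 kb held 11 summits in place of 5. The highest Eip63E summit ranked 655 in replicate 3 alone and 555 in the optimal list. No paired analysis was possible because the labels give only 1 group. The unknown read depth limits what can be said of genes without a summit.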
